A study of Mus musculus with 12 samples.

Results

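The 10 genes described here encode the potassium channels, and their accessory subunits, that carry the main repolarizing and resting currents of heart muscle cells. They were Kcna5, Kcnd2, Kcnd3, Kcnip2, Kcnj2, Kcnj3, Kcnj12, Kcnq1, Kcne1 and Kcnh2, taken by symbol from the 33641 genes listed in each of 12 samples. All 10 were found in every sample, and all 10 passed the filter of a mean of 0.5 TPM or more, as did 12526 genes in all (TPM is a gene's length-corrected share of a sample's transcripts, scaled to a total of 1000000). The samples were left ventricles (LV) and right ventricles (RV) of mice in which human phospholamban (PLN) replaces the mouse protein, 3 samples for each of the groups LV WT-PLN, RV WT-PLN, LV R14del-PLN and RV R14del-PLN. WT-PLN mice carry the human wild-type coding sequence, from a line the methods give as homozygous, while R14del-PLN mice are heterozygous, with a human allele that lacks the codon for arginine 14 beside a human wild-type allele. The cassette sits at the start codon of the mouse gene and holds a reporter and polyA stretch between LoxP sites, ahead of the human sequence. The methods give a cross with Sox2-Cre mice and name no step that limits the mutation to heart muscle. The labels give strain C57BL/6J and an age of 12 to 14 weeks for all groups, and the study's methods describe a hybrid line from 129/Sv and C57Bl/6J chimeras crossed with Sox2-Cre mice. Mutant samples are titled as knock-out but carry the genotype R14del-PLN in the labels, which was used here.

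Potassium channels end the cardiac action potential by letting potassium out of the cell. In mouse ventricle a fast transient outward current, made by Kcnd2 and Kcnd3 pores with the Kcnip2 subunit, and delayed rectifiers such as the channel of Kcna5 do most of this work. Inward rectifiers of the Kcnj family hold the resting potential, and Kcnq1 with its subunit Kcne1 and Kcnh2 form slower currents that matter more in larger mammals. Transcript levels say nothing of protein or current, and in whole ventricle fewer cells of a type and less RNA per cell cannot be told apart.

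Markers of heart muscle were high in all 12 samples. Of the ventricle markers, Myl2 was at 10599 to 16486 TPM, whereas Irx4 was at 5.35 to 12.3 TPM and Hey2 at 1.01 to 2.20 TPM. Mitochondrially encoded genes took 37.3% to 54.5% of the TPM, with the lowest share in LV R14del-PLN replicate 3. Both WT-PLN samples numbered 1 had Y-linked genes at 0.0159 to 0.191 TPM, against 3.03 to 30.6 TPM in the other 10, although the study describes male mice, and values without them are given where a call changed. The marker genes of atrial muscle summed to 1359 TPM in LV WT-PLN replicate 3 and 931 TPM in RV WT-PLN replicate 2, whereas every other sample lay between 59.2 and 553 TPM. Nppa weighs heavily in this sum, with 141 to 313 TPM in LV R14del-PLN, where Myl7 was at 0.190 to 0.440 TPM. The samples have no known sequencing depth, since TPM sum to 1000000 in each.

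The members spanned a wide range of levels in each of the 4 groups. Kcnip2, the calcium-binding subunit of the transient outward channel, was the highest member in every group, with a mean of 60.0 ± 11.5 TPM (SD, n = 12). Kcnh2, the pore of the rapid delayed rectifier, followed with 22.6 ± 3.08 TPM (SD, n = 12), and Kcnj3, a pore of the acetylcholine-activated current, with 19.8 ± 4.74 TPM (SD, n = 12). At the low end stood Kcnd3 at 2.81 ± 0.484 TPM and Kcne1 at 2.16 ± 1.91 TPM (SD, n = 12). Of the 9 neighbouring pairs in the order of levels, 4 in LV WT-PLN and 5 in each other group had sample ranges that did not overlap. Kcnip2 lay above its next neighbour in all 4 groups, whereas Kcnh2 and Kcnj3 overlapped in 3 of them, LV R14del-PLN being the exception. The order itself moved with ventricle and genotype for a few members. Kcnd2 lay below Kcnj2 without overlap in LV WT-PLN, and the pair overlapped in both RV groups. Kcna5 ranked above Kcnj12 in LV WT-PLN by its mean, with overlapping values, and below it without overlap in both RV groups. Replicates agreed within a coefficient of variation of 29.7% or less for 9 members, while Kcne1 reached 50.02% in LV WT-PLN.

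**Figure D1:**
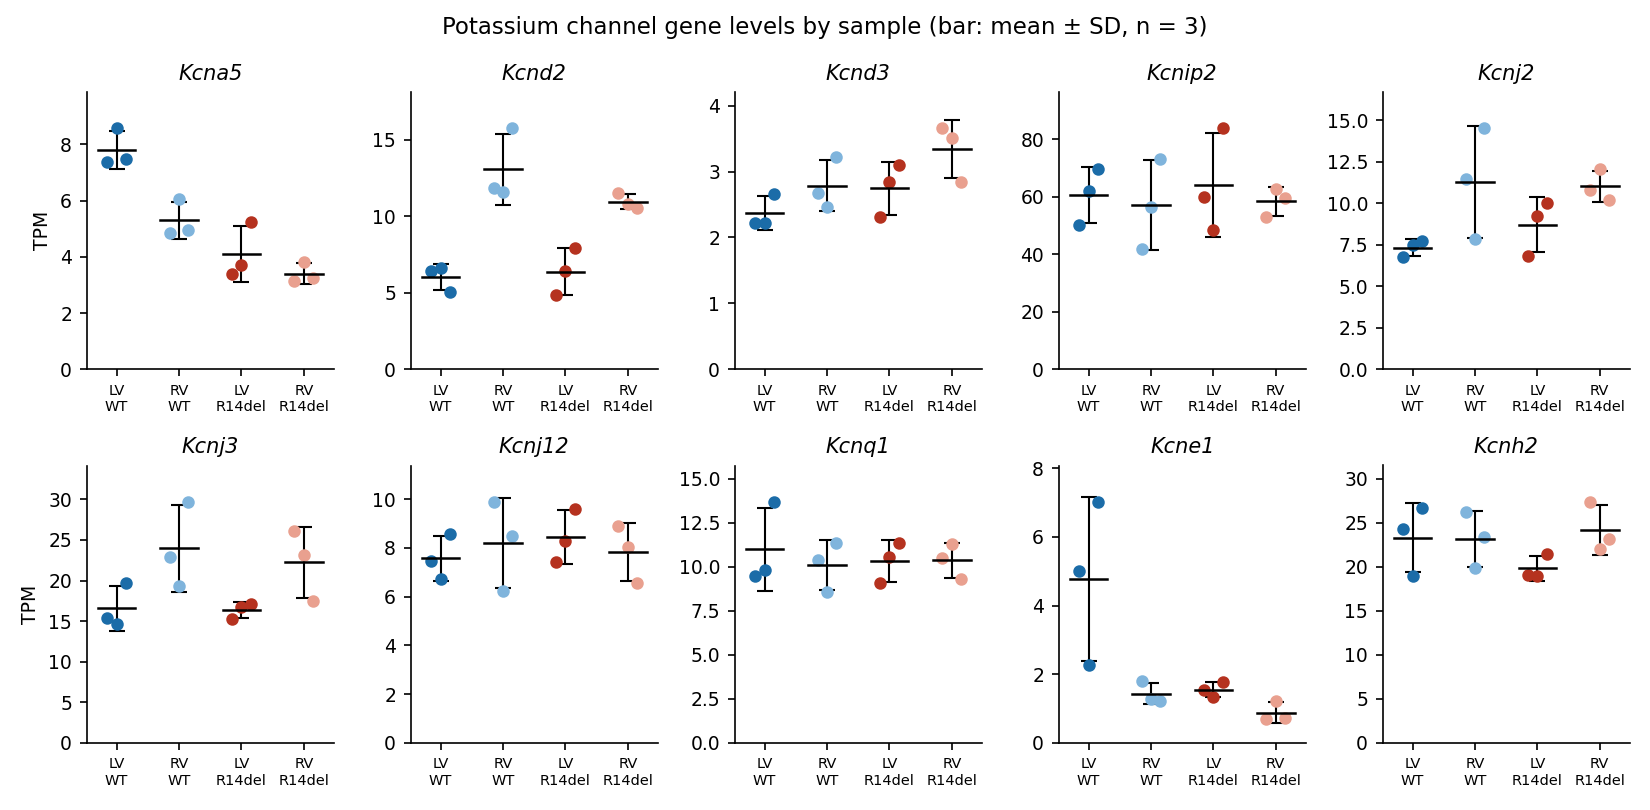
TPM of the 10 potassium channel genes in each of the 12 samples, one panel per gene, with a linear vertical axis that starts at 0. Points are samples, the horizontal bar is the group mean and the whiskers its SD (n = 3); Kcna5 is at 7.35 TPM or more in the LV WT-PLN samples and 5.24 TPM or less in the LV R14del-PLN samples, and Kcnd2 is at 10.6 TPM or more in every RV sample and 7.90 TPM or less in every LV sample.

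Sequence before the annotated start is shown for Kcna5 and Kcnd2, since these are the members that passed the test in a comparison below. Kcna5 lies on chromosome 6 of GRCm38 from 126532551 to 126535412 on the minus strand and consists of 1 exon. Kcnd2 lies on the same chromosome from 21215503 to 21729805 on the plus strand, with 6 exons. The windows are the 250 bases upstream of the RefSeq start (GRCm38.p6), printed 5′ to 3′ on the strand of the gene, and capitals mark CG dinucleotides. They are chr6:126535556-126535805 for Kcna5 (minus strand) and chr6:21215096-21215345 for Kcnd2 (plus strand).
Kcna5: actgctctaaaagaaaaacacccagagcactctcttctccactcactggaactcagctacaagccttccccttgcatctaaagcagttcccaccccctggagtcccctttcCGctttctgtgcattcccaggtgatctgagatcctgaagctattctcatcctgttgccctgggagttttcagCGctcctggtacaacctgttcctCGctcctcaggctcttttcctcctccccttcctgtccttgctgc
Kcnd2: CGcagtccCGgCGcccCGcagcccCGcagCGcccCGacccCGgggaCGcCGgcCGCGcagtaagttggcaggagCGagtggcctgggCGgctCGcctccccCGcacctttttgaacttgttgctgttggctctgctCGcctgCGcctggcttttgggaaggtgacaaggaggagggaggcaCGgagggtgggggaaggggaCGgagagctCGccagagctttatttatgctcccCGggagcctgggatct
The Kcna5 window had a G+C content of 53.2% and 3 CG dinucleotides, beside medians of 52.4% and 6 over 32851 RefSeq windows. The Kcnd2 window had 68.8% and 22 CG dinucleotides. A window was found for 8 of the 10 members. Searched on both strands, GGGCGG (GC box) was in 4 of the 8 and in 32.7% of all windows, and the Kcnd2 window held it. CACGTG (E-box) was in 1 of the 8, Kcnj2, and in 6.02% of all windows. AGAACA, a core of the glucocorticoid receptor motif, and TATAAA were in 0 of the 8, against 16.1% and 12.4% of all windows. These letters are a description of the windows, and no binding was measured.

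The comparison of genotypes asks whether channel transcripts differ between R14del-PLN and WT-PLN hearts. Kcna5, which encodes the pore of an ultrarapid delayed rectifier, fell in the LV. In LV WT-PLN it was at 7.35, 8.57 and 7.49 TPM, and in LV R14del-PLN at 3.39, 3.69 and 5.24 TPM. The groups did not overlap, and the WT-PLN mean of 7.81 ± 0.668 TPM was 1.90 times the R14del-PLN mean of 4.11 ± 0.996 TPM (SD, n = 3 each). As a difference of log2(TPM + 1), a scale on which low genes appear to move less, it was -0.80 (SE 0.15, 95% interval -1.12 to -0.48). Its Benjamini-Hochberg adjusted p in limma was 0.0312 over 12526 genes, and with a fold change above 1.5 it was the one member of 10 called in this comparison, where 0.519% of all genes were called. At an unadjusted p of at most 0.05 stood 2 members (Kcna5 and Kcne1) and 9.60% of all genes. Over 24 alternatives the difference was -0.95 to -0.68 with adjusted p of 0.00740 to 0.161, and the call was lost in 7 of them. It was lost without LV WT-PLN replicate 2 (adjusted p in limma 0.157) or 3 (0.0984), without LV R14del-PLN replicate 1 (0.158) or 2 (0.161), and without RV R14del-PLN replicate 3 (0.0525), which is part of the shared spread. It was also lost with no filter on low genes (0.0936) and with only the 6 LV samples fitted (0.0945). It was kept without both WT-PLN samples numbered 1 (0.0341).

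In the RV, Kcna5 was at 4.86, 6.05 and 4.97 TPM in WT-PLN and at 3.15, 3.82 and 3.23 TPM in R14del-PLN. Again each mutant sample lay below each WT-PLN sample, with means of 5.29 ± 0.658 and 3.401 ± 0.366 TPM (SD, n = 3 each), a ratio of 1.56. The log2 difference of -0.51 (95% interval -0.83 to -0.19) had an adjusted p of 0.294 in limma and was not called in the RV, where 0 of 10 members and 0.271% of all genes were called. At an unadjusted p of at most 0.05 stood 1 member, Kcna5, and 6.22% of all genes. Whether Kcna5 differed more in the LV than in the RV was tested as an interaction, which gave 0.29 (95% interval -0.17 to 0.74, adjusted p in limma 0.9999). Kcna5 was the one member of 10 below WT-PLN without overlap in both ventricles, as were 2.38% of all genes tested.

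Kcne1, the small subunit that slows the Kcnq1 channel, was spread widely in the control LV. It was at 5.005, 2.27 and 7.03 TPM in LV WT-PLN and at 1.54, 1.34 and 1.76 TPM in LV R14del-PLN. The mutant samples were all lower, by a log2 difference of -1.09 (SE 0.25), and the adjusted p in limma was 0.0904, so Kcne1 was not called. Without LV WT-PLN replicate 2 the difference was -1.45 and the gene was called (adjusted p in limma 0.00344), whereas without LV WT-PLN replicate 3 it was -0.80 (0.315). Over 23 alternatives the adjusted p was 0.00344 to 0.329. The highest value, in LV WT-PLN replicate 3, came with the highest sum of atrial markers (1359 TPM) and of conduction system markers (15.9 TPM against 6.02 to 10.004 TPM elsewhere), and their part in the result was not tested beyond the value without this sample. LV WT-PLN replicate 1, at 5.005 TPM of Kcne1, had sums of 227 and 6.81 TPM for these lists. The atrial sum hides genes that differed in order. Myl7 was at 39.4, 0.512 and 299 TPM in LV WT-PLN replicates 1, 2 and 3, the same order as Kcne1. Myl4, Sln, Mybphl, Dkk3 and Stard10 of the same list had this order too. Nppa, and Bmp10 below the filter, were lowest in replicate 1 and did not have this order. In the RV, Kcne1 was at 1.79, 1.28 and 1.22 TPM in WT-PLN and at 0.683, 1.23 and 0.709 TPM in R14del-PLN, where the ranges overlapped by a narrow margin and the log2 difference was -0.38 (95% interval -0.92 to 0.16).

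Of 10 members, 0 lay higher and 2 lower without overlap in LV R14del-PLN (Kcna5 and Kcne1), where 8.47% of all genes were lower in this way. In the RV the members lower without overlap were Kcna5 and Kcnd2, where 5.79% of all genes were. For Kcnd2 the gap between the groups was small, with 11.6 TPM as the lowest WT-PLN value and 11.5 TPM as the highest mutant value, and the log2 difference of -0.22 had a 95% interval of -0.59 to 0.14.

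The pore and partner genes of the transient outward and inward rectifier currents, with Kcnq1 and Kcnh2, gave no call between genotypes. In the LV the differences of these 8 members lay between -0.21 (Kcnh2) and 0.21 (Kcnj2) on the log2 scale, with 95% intervals reaching from -0.53 to 0.61 and adjusted p of 0.726 or more in limma. Kcnip2 was at 50.2, 61.9 and 69.4 TPM in LV WT-PLN and at 59.8, 48.4 and 83.8 TPM in LV R14del-PLN, so that the mutant samples spanned the control range. In the RV Kcnip2 was at 41.8, 56.5 and 73.1 TPM in WT-PLN and at 53.0, 62.6 and 59.4 TPM in R14del-PLN. Kcnh2 was at 24.3, 19.0 and 26.6 TPM in LV WT-PLN and at 19.1, 18.9 and 21.5 TPM in LV R14del-PLN. Kcnq1, the pore of the slow delayed rectifier, was at 9.45, 9.79 and 13.7 TPM in LV WT-PLN and at 9.05, 10.5 and 11.4 TPM in LV R14del-PLN. Its gene overlaps 4 genes on the opposite strand, among them Kcnq1ot1. The libraries were stranded, but whether the counting behind the deposited TPM used strand is not given in the sources used here. In the RV the log2 differences of the members other than Kcna5 and Kcnd2 lay between -0.38 and 0.19, with intervals from -0.92 to 0.53.

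**Figure D2:**
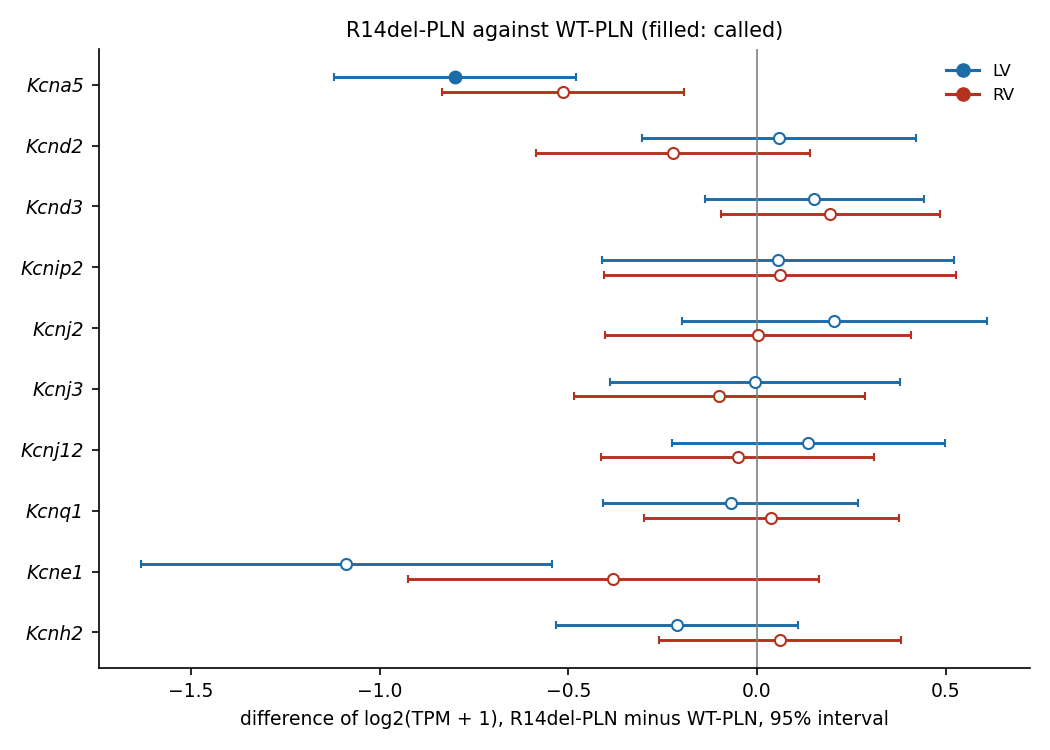
Difference of log2(TPM + 1), R14del-PLN minus WT-PLN, for the 10 genes in the LV (blue) and RV (red), with 95% intervals from the limma fit of all 12 samples. The filled point marks the one call, Kcna5 in the LV at -0.80; the RV value of Kcna5 is -0.51, and the interval of Kcne1 in the LV runs from -1.63 to -0.54 without a call.

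The comparison of ventricles asks which channel transcripts differ between RV and LV of one genotype. Kcnd2, a pore gene of the fast transient outward current, stood higher in every RV sample. In WT-PLN it was at 6.44, 6.61 and 5.01 TPM in the LV and at 11.9, 11.6 and 15.7 TPM in the RV. In R14del-PLN it was at 4.84, 6.41 and 7.90 TPM in the LV and at 11.5, 10.8 and 10.6 TPM in the RV. Its RV mean was 2.17-fold the LV mean in WT-PLN and 1.71-fold in R14del-PLN. The log2 differences were 1.00 (SE 0.17, 95% interval 0.63 to 1.36, adjusted p in limma 0.131) and 0.71 (SE 0.17, 95% interval 0.35 to 1.08, adjusted p in limma 0.711). Neither passed, and limma called 0 of 10 members and 0% of all genes in each genotype. At an unadjusted p of at most 0.05 stood 5 members and 1811 genes, or 14.5% of all, in WT-PLN, and 2 members (Kcnd2 and Kcnj3) and 823 genes, or 6.57% of all, in R14del-PLN. The Kcnd2 difference in WT-PLN was called when mitochondrially encoded genes were removed (1.18, adjusted p in limma 0.0259).

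Averaged over both genotypes, a comparison added after the values were seen, Kcnd2 rose in the RV by 0.86 (SE 0.12, 95% interval 0.60 to 1.11) with an adjusted p of 0.0200 in limma. It was the one member called, among 0.263% of all genes called, while 21.5% of all genes had an unadjusted p of at most 0.05. The call was lost without LV WT-PLN replicate 3 (adjusted p in limma 0.0571), RV WT-PLN replicate 3 (0.0659), LV R14del-PLN replicate 2 (0.0521) or RV R14del-PLN replicate 3 (0.0536), and without both WT-PLN samples numbered 1 (0.0502). Over the 24 alternatives the difference was 0.78 to 1.04. The interaction of Kcnd2 with genotype was -0.28 (95% interval -0.79 to 0.23, adjusted p in limma 0.9999). Over all genes the median RV minus LV difference was -0.17 for WT-PLN and -0.08 for R14del-PLN, so that most genes were lower in the RV on this scale and Kcnd2 differed from them by more than from 0.

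Members without overlap between ventricles numbered 4 of 10 in WT-PLN, with Kcnd2 and Kcnj2 higher in the RV, where 0.974% of all genes were, and Kcna5 and Kcne1 lower, where 25.2% of all genes were. In R14del-PLN there were 5, with Kcnd2, Kcnj2, Kcnj3 and Kcnh2 higher, where 1.26% of all genes were, and Kcne1 lower, where 8.72% were. In both genotypes at once, Kcnd2 and Kcnj2 were higher in the RV without overlap, and so were 0.168% of all genes, 21 in number. Kcne1 was lower in both, as were 5.41% of all genes.

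Kcnj2, the main pore gene of the inward rectifier that holds the resting potential, was at 6.76, 7.48 and 7.75 TPM in LV WT-PLN and at 11.5, 7.83 and 14.5 TPM in RV WT-PLN. In R14del-PLN it was at 6.84, 9.24 and 10.001 TPM in the LV and at 10.8, 12.1 and 10.2 TPM in the RV. The ranges abutted in both genotypes, with a gap of less than 1 TPM. Log2 differences of 0.52 (95% interval 0.12 to 0.93) in WT-PLN and 0.32 (95% interval -0.08 to 0.73) in R14del-PLN had adjusted p of 0.290 and 0.838 in limma. Kcnj3 was at 15.4, 14.7 and 19.7 TPM in LV WT-PLN and at 22.8, 19.3 and 29.7 TPM in RV WT-PLN. In R14del-PLN it was at 15.3, 16.8 and 17.1 TPM in the LV and at 26.1, 23.1 and 17.5 TPM in the RV. Over both genotypes the Kcnj3 difference was 0.45 (adjusted p in limma 0.0887), and it was called under quantile normalization (0.59, adjusted p in limma 0.0349) and upper quartile scaling (0.59, 0.0327). Kcnj3 is known as an atrial gene, and its values did not follow the atrial marker sums in one direction. LV WT-PLN replicate 3 had the highest atrial sum (1359 TPM) and the highest Kcnj3 of its group, and RV R14del-PLN replicate 3 had the lowest of both (59.2 TPM for the sum). RV WT-PLN replicate 2 had the highest sum (931 TPM) and the lowest Kcnj3 of its group. The part of atrial transcripts in the Kcnj3 values was not tested.

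The RV was lower in Kcne1, whose WT-PLN log2 difference was -1.16 (SE 0.25, adjusted p in limma 0.177), and over both genotypes -0.81 (SE 0.18, adjusted p in limma 0.0568), neither of them called. The WT-PLN difference was called in 1 alternative, without LV WT-PLN replicate 2 (adjusted p in limma 0.0111). Once replicate number was fitted as a block, the difference over both genotypes was called, at adjusted p of 0.0470 for a fixed block, 0.0385 for a random block within genotype and 0.0226 for a fixed block within genotype (limma). It was also called without LV WT-PLN replicate 2 (adjusted p in limma 0.0159) and without RV R14del-PLN replicate 2 (0.0440). Kcna5 was lower in RV than LV in WT-PLN by a log2 difference of -0.49 (95% interval -0.81 to -0.17, adjusted p in limma 0.247), and in R14del-PLN by -0.20 (95% interval -0.52 to 0.12). The other members had log2 differences of -0.10 to 0.17 in WT-PLN, with 95% intervals from -0.57 to 0.46. In that group the signs of Kcnip2, Kcnq1 and Kcnh2 turned with quantile normalization, upper quartile scaling or removal of mitochondrially encoded genes. In R14del-PLN, Kcnh2 was at 19.1, 18.9 and 21.5 TPM in the LV and at 27.4, 22.1 and 23.1 TPM in the RV, a log2 difference of 0.27 (95% interval -0.05 to 0.59). Summed endothelial markers were at 96.3 to 125 TPM for the LV and 78.1 to 92.3 TPM for the RV of WT-PLN hearts, without overlap, and at 93.3 to 125 TPM and 82.6 to 110 TPM in R14del-PLN, with overlap. None of the 6 genes was called by limma, and at an unadjusted p of at most 0.05 lay 3 in WT-PLN, 1 in R14del-PLN and 5 over both genotypes, all of them lower in the RV. Tie1 had an adjusted p of 0.0325 in limma over both genotypes with a log2 difference of -0.51, short of the fold threshold. The sixth, Vwf, had positive log2 differences of 0.19 in WT-PLN and 0.23 in R14del-PLN. The part of these genes in the ventricle differences was not tested. The interaction of genotype and ventricle was called for 0 of 10 members and 0% of all genes by limma, with 127 genes, or 1.01%, at an unadjusted p of at most 0.05 and no member among them.

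**Figure D3:**
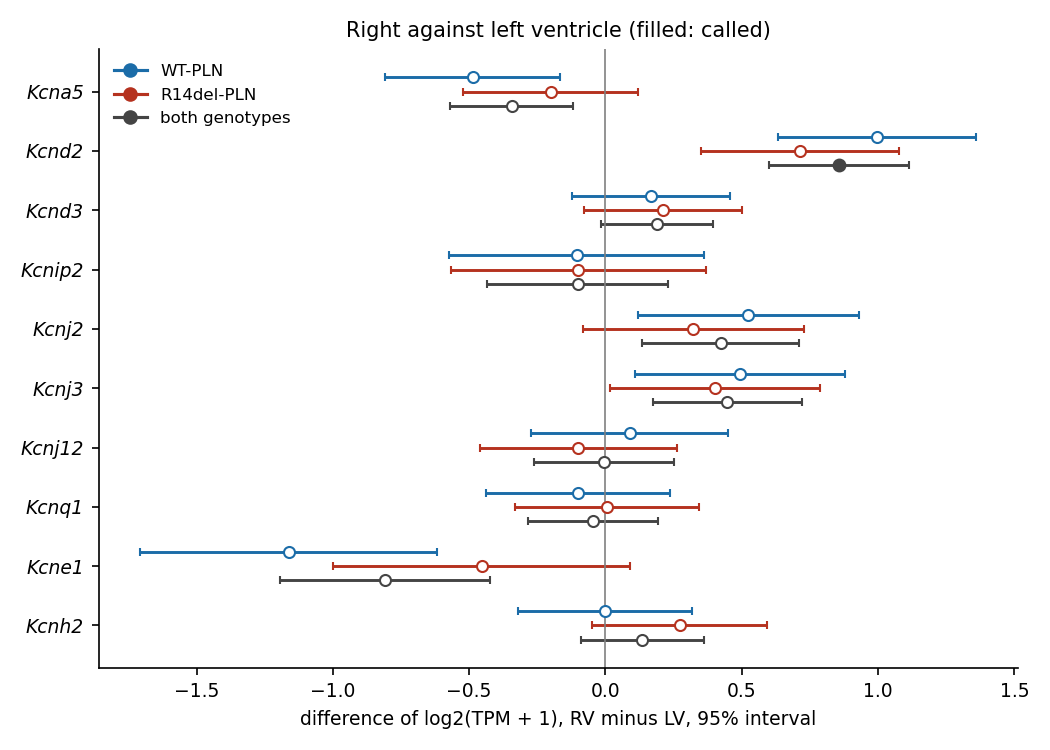
Difference of log2(TPM + 1), RV minus LV, for the 10 genes in WT-PLN (blue), R14del-PLN (red) and averaged over both genotypes (black), with 95% intervals from the limma fit of all 12 samples. The filled point marks the one call, Kcnd2 averaged over both genotypes at 0.86; Kcnj2 and Kcnj3 lie to the right of 0 and Kcne1 and Kcna5 to the left, without a call.

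Pore and accessory subunits assemble into one channel, so ratios of partners were taken within each sample, which removes the sample's scale. Kcnip2 to Kcnd2, the subunit over its pore, was 7.79, 9.36 and 13.8 in LV WT-PLN and 3.53, 4.89 and 4.64 in RV WT-PLN. In R14del-PLN it was 12.4, 7.56 and 10.6 in the LV and 4.60, 5.82 and 5.62 in the RV. The LV mean was thus 2.37-fold the RV mean in WT-PLN hearts and 1.90-fold in mutant hearts, and the samples did not overlap in either genotype. Between genotypes the means were close, 10.3 ± 3.15 against 10.2 ± 2.43 in the LV and 4.35 ± 0.724 against 5.35 ± 0.655 in the RV (SD, n = 3 each). Kcnd3 to Kcnd2, the ratio of the minor to the major pore gene, was 0.403 ± 0.111 in LV WT-PLN and 0.215 ± 0.0107 in RV WT-PLN (SD, n = 3 each). In R14del-PLN it was 0.437 ± 0.0427 in the LV and 0.304 ± 0.0312 in the RV (SD, n = 3 each), and the RV ratio of the mutant lay above that of WT-PLN without overlap. Kcnj12 to Kcnj2, both inward rectifier pores, was 1.04 ± 0.118 and 0.980 ± 0.0950 in the LV of WT-PLN and R14del-PLN, and 0.748 ± 0.145 and 0.711 ± 0.0998 in the RV (SD, n = 3 each). All 3 ratios were lower in RV than in LV without overlap in both genotypes. The Kcnd2 and Kcnj2 levels given above enter these ratios, so they are not separate evidence. With 3 samples against 3 the exact two-sided permutation test cannot go below 0.1, and 7 of 12 comparisons reached that value (Benjamini-Hochberg adjusted p 0.171).

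**Figure D4:**
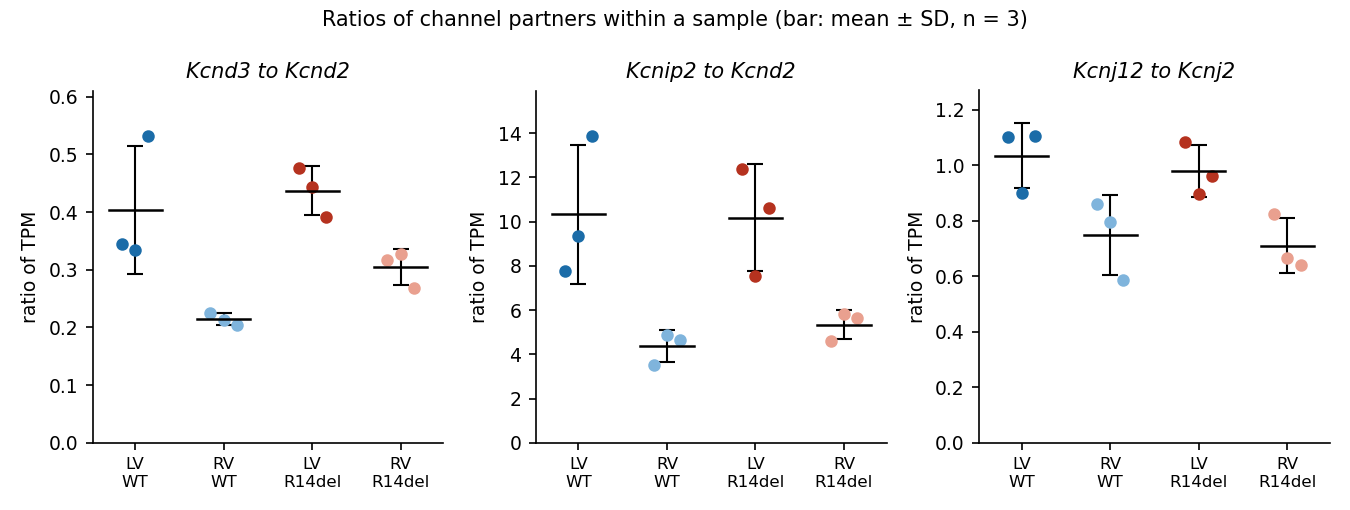
Ratio of TPM within each sample for Kcnd3 to Kcnd2, Kcnip2 to Kcnd2 and Kcnj12 to Kcnj2 in the 4 groups, on linear axes that start at 0. Points are samples, bars the group mean and whiskers its SD (n = 3); every RV point lies below every LV point of its genotype, and for Kcnip2 to Kcnd2 the means are 10.3 and 4.35 in WT-PLN and 10.2 and 5.35 in R14del-PLN.

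Further potassium channel genes of the heart and other tissues made a fixed list of 56, of which 31 lay below the filter and were not tested. Among these was Kcnma1, which the study reports as under-expressed in the mutant LV only. It was at 0.0647, 0.0443 and 0.427 TPM in LV WT-PLN and at 0.0276 to 0.0523 TPM in LV R14del-PLN. The filter on low values was passed by 25, and limma called 0 of 25 in each comparison, with 3 in the LV and 2 in the RV at an unadjusted p of at most 0.05 between genotypes. Of all genes, 9.60% and 6.22% stood at that level in LV and RV, and 0.519% and 0.271% were called between genotypes. Their median log2 difference between genotypes was 0.04 in the LV and -0.01 in the RV, beside -0.09 and -0.003 over all genes tested. The highest in mean level were Kcng2, a silent subunit that joins other pores, at 53.9 TPM, Abcc9, the sulfonylurea receptor of the ATP-sensitive channel, at 53.4 TPM, and Kcnk3, a background leak channel, at 50.6 TPM. They stood near Kcnip2 in level and above the other 9 members. Of 10 scaffold and partner genes, 8 were tested and 0 were called by limma in any comparison. Between genotypes, 1 in the LV and 0 in the RV stood at an unadjusted p of at most 0.05, beside the same shares of all genes.

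Lists of genes that regulate channel transcription, or that respond to signals which do, were read beside Kcna5. Of 11 transcription factors tested, Klf15, a zinc finger factor known to act on Kcnip2 transcription, was the 1 called, lower in both R14del-PLN ventricles. It was at 27.6, 31.8 and 31.7 TPM in LV WT-PLN and at 14.2, 12.5 and 17.0 TPM in LV R14del-PLN, with log2 differences of -1.02 in the LV and -0.99 in the RV (adjusted p in limma 0.00553 and 0.00847). The ranges of Kcnip2 overlapped between genotypes in the same hearts, as given above. Of 15 clock genes tested, limma called 1, Per1, a repressor arm gene that also responds to glucocorticoids. Per1 was lower in both ventricles, by log2 differences of -1.23 and -1.05 (adjusted p in limma 0.00440 and 0.0168). At an unadjusted p of at most 0.05 stood 8 of the 15 in the LV and 9 in the RV, 7 of them lower in each. Of all genes, 9.60% and 6.22% stood there. The median log2 difference of the clock list was -0.31 in the LV and -0.28 in the RV. Of 10 glucocorticoid-induced genes, 6 were called lower in the LV (Cdkn1a, Fkbp5, Klf9, Mt2, Tsc22d3 and Zbtb16) and 2 in the RV (Tsc22d3 and Zbtb16). Of all genes, 0.519% and 0.271% were called. At an unadjusted p of at most 0.05 in limma, 9 of the 10 were lower in the LV and 8 in the RV. The summed level of this list was 449 to 615 TPM in LV WT-PLN and 200 to 300 TPM in LV R14del-PLN, and 486 to 537 TPM and 247 to 324 TPM in the RV of these genotypes. The median log2 difference of this list was -1.22 in the LV and -1.15 in the RV, beside -0.09 and -0.003 over all genes. The part of these genes in the Kcna5 result was not tested.

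The genes whose log2(TPM + 1) followed Kcna5 most closely over the 12 samples, among all tested genes outside the members, were Adgrg1 (Pearson r 0.978), S1pr1 (0.973) and Mcf2l (0.967). These are descriptions over samples that share groups and scale. With group means removed, the r values were 0.864, 0.792 and 0.740. S1pr1, a receptor for a lipid signal, was at 19.9 TPM in LV WT-PLN, 14.7 TPM in RV WT-PLN, 10.96 TPM in LV R14del-PLN and 9.60 TPM in RV R14del-PLN, the same order of groups as Kcna5. Summed endothelial markers overlapped between genotypes in the LV, at 96.3 to 125 TPM in WT-PLN and 93.3 to 125 TPM in R14del-PLN. The sum joins genes that moved in opposite directions. Of the 6, 1 was higher and 1 lower at an unadjusted p of at most 0.05 in each ventricle, and 0 were called by limma. In the LV, Kdr was at 11.9 to 14.1 TPM in WT-PLN and 15.6 to 20.6 TPM in R14del-PLN. Vwf was at 7.44 to 11.8 TPM and 4.04 to 7.10 TPM. The part of these genes in the Kcna5 result was not tested. Red cell transcripts summed to 2080 to 2307 TPM in LV WT-PLN and 1090 to 2135 TPM in LV R14del-PLN, with 3 of 4 genes at an unadjusted p of at most 0.05 and 0 called by limma, and their part in the Kcna5 result was not tested. Atrial markers summed to 227, 329 and 1359 TPM in LV WT-PLN and to 159, 332 and 271 TPM in LV R14del-PLN. Nppa made most of the sum in LV R14del-PLN, at 141, 313 and 253 TPM. Myl7 of the same list was at 39.4, 0.512 and 299 TPM in LV WT-PLN and at 0.190 to 0.440 TPM in LV R14del-PLN. The 7 tested genes of that list had a median log2 difference of -1.995 in the LV, beside -0.09 over all genes, with 2 of 7 at an unadjusted p of at most 0.05 and 0 called by limma. Conduction system markers had a median of -0.35 in the LV, with 0 of 6 at that level. Without LV WT-PLN replicate 3, where both sums were highest, the Kcna5 difference in the LV was -0.83 (adjusted p in limma 0.0984). The markers of heart muscle, fibroblasts, smooth muscle, macrophages, and Schwann cells and neurons gave 0 calls between genotypes in limma in either ventricle, with at most 2 genes of a list at an unadjusted p of at most 0.05.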

How the data were processed

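Messenger RNA of mouse LV and RV was sequenced from stranded polyA libraries, and the authors deposited 1 TPM value per gene and sample, which were used as deposited. Mapping in the study was to GRCm38 in CLC Genomics Workbench. The program and annotation behind the TPM and strand counting are not given in the sources used here. Groups and replicate numbers came from the labels. For the RNA sequencing the study gives N = 3 without stating the unit, and each group held 3 samples. Which LV and RV samples share a mouse is not given in the sources used here, and the fit treats all samples as independent. The members and lists were chosen with earlier results of these data known.

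A filter at a mean of 0.5 TPM left 12526 genes, which were tested on log2(TPM + 1) with limma 3.58.1 (R 4.3.3), using moderated variances with trend, 4 group means and 8 residual degrees of freedom, and Benjamini-Hochberg adjustment. A call needed a fold change of 1.5 or more, taken on log2(TPM + 1), and an adjusted p of 0.05 or less (interaction: adjusted p alone). These thresholds are those of the study, which reports far more changed genes between genotypes than the 65 in the LV and 34 in the RV called here. The absence of a call is thus limited to this test. The function was tested on simulated data. The average of both ventricle differences and a fixed replicate block within genotype were added after values were seen. All members were named, other lists were counted and their genes named where called, together with the 3 highest other channels and the 3 genes most like each called member of the planned comparisons. Ratios used exact permutation tests. Positions came from GENCODE vM21 and upstream windows from RefSeq, and BLAST 2.17.0 found no near-identical copies of the members. LV and RV samples that share a number deviated together in WT-PLN (r of 0.658, 0.321 and 0.457) and less so in R14del-PLN (0.389, 0.230 and 0.0542), and between genotypes r was -0.0209 to 0.219. Python 3.11.15 was used for the other steps.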

Additional observations from a re-analysis of the deposited data

How the results depend on the processing

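Alternatives were pseudocounts of 0.5 and 0.1, no filter and a filter at 5 TPM, quantile normalization, scaling to the upper quartile, removal of mitochondrially encoded genes, the 6 samples of a comparison alone, replicate blocks, no intensity trend, fold thresholds of 1 and 2, and samples left out. The number of members called between genotypes in the LV was 1, and it was 0 with no filter, with the 6 samples alone and at a fold threshold of 2, and 0 to 1 when each sample was left out. Between ventricles in WT-PLN it was 0, but 1 without mitochondrially encoded genes and 0 to 1 with samples left out. Averaged over both genotypes it was 1, but 2 with quantile normalization, upper quartile scaling, the replicate block, the replicate block within genotype and the fixed replicate block within genotype, 0 at a fold threshold of 2 and without both WT-PLN samples numbered 1, and 0 to 2 with samples left out. The counts in the RV between genotypes, between ventricles in R14del-PLN and of the interaction stayed at 0, with the replicate block too, and the block changed no other call of a member. For the ratios the within-number sign-flip test cannot go below 0.25. None of the 27 differences followed singly changed sign, whereas 26 of 45 others, of at most 0.11 on the log2 scale, did so in at least 1 alternative. The 27 had been picked for ranges without overlap or an unadjusted p in limma of at most 0.05, or because they were of Kcna5. Their constant sign follows in part from that choice. Depth is unknown, so no counting error or floor can be given, and 3 samples a group limit what could be detected.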
